A study of Homo sapiens with 6 samples.

Results

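The genes described here encode the respiratory chain and the ATP synthase. They were taken as all probe sets (groups of short probes read together as a single value) that the array's annotation assigns to 1 gene whose symbol begins with NDUFA, NDUFB, NDUFC, NDUFS, NDUFV, SDH, UQCR, COX followed by a digit, or ATP5. This gave 203 of the 54675 probe sets, for 107 of the 19775 genes that have a probe set of their own. Expression was measured on Affymetrix arrays in HT-29, a human colon adenocarcinoma line, with 2 arrays each of BR100, BR200 and wild type. The labels describe how resistant clones were made: 7 months of selection in rising doses of bortezomib, a proteasome inhibitor, between 20 and 300 nM, and then cloning at limiting dilution, done 2 times, with 100 or 300 nM of the drug present during a further 4 months. The description is repeated for wild type samples too, it leaves the cloning dose of BR200 open, and it is silent on whether cells were harvested with drug. Each variant had an array labelled with the Express kit (100 ng of total RNA) and an array labelled with the One-Cycle kit (3 ug). Separate cultures are not stated for the arrays of a variant, so p-values cover only the spread between these arrays, which may be technical.

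The respiratory chain passes electrons from NADH (complex I) and succinate (complex II) through coenzyme Q to complex III, cytochrome c and complex IV, the cytochrome c oxidase, and complexes I, III and IV pump protons across the mitochondrial inner membrane. ATP synthase, also called complex V, lets the protons flow back through a ring in its membrane part and makes ATP in its soluble head. Nearly all subunits are encoded in the nucleus and imported, a few core subunits come from mitochondrial DNA, and dedicated assembly factors insert their cofactors and join the modules.

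All values are log2 expression as deposited, and those of a variant are given with the Express array before the One-Cycle array. Of the 203 probe sets, 162 (96 genes) reached a log2 value of 4 on at least 2 of the 6 arrays and were tested, 41 were not, and 11 genes had no tested probe set. The 203 comprised 62 of complex I, 10 of complex II, 13 of complex III, 32 of complex IV, 38 of complex V, 41 of assembly factors and 7 of antisense, divergent or pseudogene transcripts. SDHB, NDUFA4 and NDUFA4L2 were not analysed here, and 21 probe sets that name a member together with another gene were left out. Of 11 colon epithelium markers, 9 reached 4 on all 6 arrays, while CDX1 and CDX2 did not, and 0 of 6 muscle, 1 of 7 fibroblast, 1 of 5 endothelium and 2 of 5 blood cell markers did. The mean of the epithelial list was 10.04 to 10.27 on the resistant arrays and 11.09 and 11.21 on the wild type arrays, and its part in the results was not tested. The genes of that list did not move alike: LGALS4 read 6.90 to 7.94 on the resistant arrays and 13.48 and 13.04 on the wild type arrays, while KRT18 read 15.30 to 15.43 on the resistant arrays and 15.39 and 15.36 on the wild type arrays. The 3' minus 5' gap of ACTB probe sets, which moves with RNA integrity and labelling, averaged 2.44 in BR100, 2.50 in BR200 and 3.61 in wild type on the log2 scale, and its part in the results below was not tested. In arrays of a cell line, fewer cells of a type and less RNA per cell cannot be told apart.

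Most probe sets of the respiratory chain and ATP synthase were higher in the resistant variants. In BR100 against wild type, 97 of the 162 (59.9%) rose, 14 (8.64%) fell and 51 did not pass the test. Over all 22317 probe sets tested, 61.6% were called, 30.3% higher and 31.3% lower. The median log2 change was 0.45 for these genes and −0.00 for all probe sets tested. In BR200 against wild type, 90 (55.6%) rose, 13 (8.02%) fell and 59 did not pass, with a median of 0.36, against 57.5% called of all probe sets, 28.4% higher and 29.2% lower, with a median of −0.00. Both comparisons share the wild type arrays. A call means an adjusted p under 0.05 in a limma model of variant with the kit as a block (Benjamini-Hochberg over all probe sets tested). Without the block, 45 probe sets were called higher in BR100 and 41 in BR200, and without the filter on low values, 60 and 51. For these fits, and for the next ones that left out an array, shares over all probe sets were not computed. A drop in calls among these genes therefore cannot be told apart from a drop over all probe sets. Leaving out either BR100 array left 64 called higher in BR100, and leaving out the Express or the One-Cycle array of BR200 left 48 or 55 called higher in BR200.

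Within each kit the members' median change had the same sign as in the full model. BR100 minus wild type was 0.43 with Express and 0.45 with One-Cycle, and BR200 minus wild type was 0.42 with Express and 0.33 with One-Cycle. Probe sets were also set beside others of like level, since many members have high values. At a mean log2 value of 12 or more, 69.8% of 53 member probe sets rose in BR100, against 41.2% of all 1406 probe sets at that level. In BR200 the shares were 64.2% of the members and 37.9% of all. At a mean between 7 and 10, 59% of the members and 33.5% of all rose in BR100, and between 10 and 12, 72.7% and 38.1%. At a mean between 4 and 7, 21.7% of 23 member probe sets rose in BR100 and 22.7% of all did. At that level 8 of the 23 fell in BR100, as did 29.3% of all. At 12 or more, 0 of the 53 fell in BR100, beside 21.8% of all. The 5 member probe sets (3 genes) of chromosome 14 had a median change of 0.61 in BR100 and 0.54 in BR200. The other probe sets of that chromosome had medians of 0.60 and 0.59, the largest of any chromosome with members. Chromosomes 2, 1 and 19 had the most member probe sets. On chromosome 2 the members' medians were −0.07 and −0.05, against 0.00 and 0.00 for the others. They were 1.06 and 0.87 on chromosome 1, against 0.06 and 0.03. On chromosome 19 they were 0.42 and 0.34, against 0.01 and −0.03. The part of the chromosome was not tested.

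**Figure D1:**
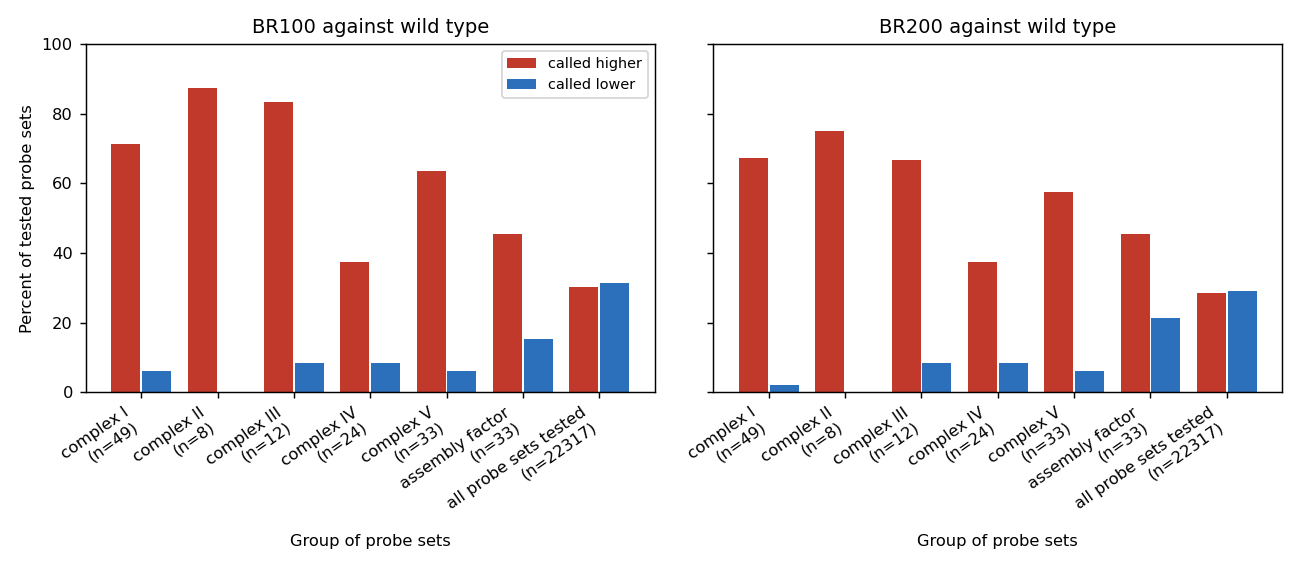
Percent of tested probe sets called higher and lower against wild type, for BR100 (left panel) and BR200 (right panel), by complex, for assembly factors and for all probe sets tested. The share called higher in complex I is 71.4% in BR100 and 67.3% in BR200, that in complex IV is 37.5% in both, and that of all probe sets is 30.3% and 28.4%.

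**Figure D2:**
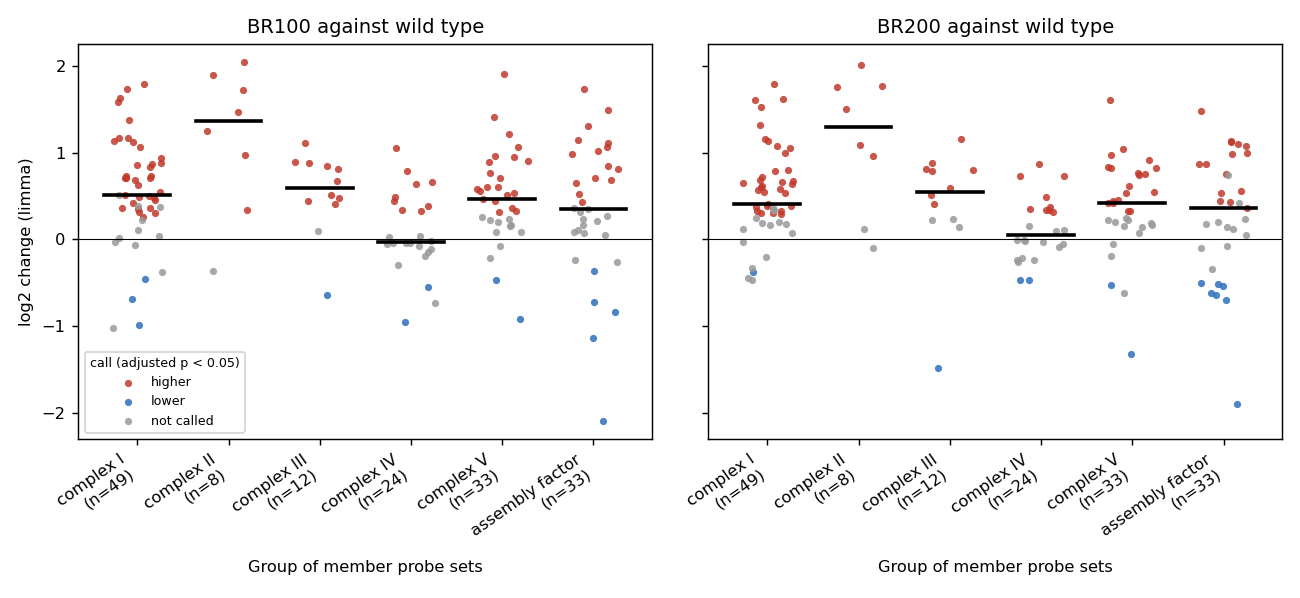
Log2 change against wild type of each tested probe set, in columns by complex, for BR100 (left panel) and BR200 (right panel), with the median of each column. Complex II sits highest, with medians of 1.36 in BR100 and 1.30 in BR200, and complex IV lies around 0, with medians of −0.03 and 0.05.

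Complex I, the NADH dehydrogenase, rose in most of its probe sets. In BR100, 35 of 49 rose and 3 fell (median 0.51), and in BR200, 33 rose and 1 fell (median 0.40). The accessory subunits, which surround the catalytic core, accounted for most of this. Of their 41 probe sets, 31 rose and 2 fell in BR100 and 32 rose and 0 fell in BR200, where 0 also had an unadjusted p under 0.05 in the lower direction. The 8 probe sets of core subunits were those of NDUFS1, NDUFS3, NDUFS7, NDUFV1 and NDUFV2. Of these, 4 (50%) rose and 1 (12.5%) fell in BR100, and 1 (12.5%) rose and 1 (12.5%) fell in BR200. Over all probe sets tested, 30.3% rose and 31.3% fell in BR100, and 28.4% and 29.2% in BR200. Several of the 8 belong to NDUFS1, share that gene and did not move alike. The difference between accessory and core subunits was not tested.

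NDUFB8, an accessory subunit of the membrane arm, read 11.67 and 11.07 in BR100, 11.64 and 11.10 in BR200, and 9.75 and 9.41 in wild type (probe set 201226_at). All 4 resistant arrays lay above both wild type arrays. The log2 change was 1.79 in BR100 (SE 0.10, adjusted p = 0.000762) and 1.79 in BR200 (SE 0.10, adjusted p = 0.000901), which is 3.46-fold and 3.45-fold. A second probe set of NDUFB8, 201227_s_at, changed by 1.59 and 1.62.

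NDUFA9, an accessory subunit where the peripheral and membrane arms meet, read 11.35 and 11.49 in BR100, 11.22 and 11.21 in BR200, and 9.71 and 9.66 in wild type. The variants did not overlap, and the kits differed little for this gene. Its log2 change was 1.73 in BR100 (SE 0.09, adjusted p = 0.000663) and 1.53 in BR200 (SE 0.09, adjusted p = 0.000964). NDUFB6, another accessory subunit of the membrane arm, read 12.57 and 12.22 in BR100, 12.59 and 12.17 in BR200, and 10.89 and 10.65 in wild type, again without overlap. It rose by 1.63 in BR100 and 1.61 in BR200 (SE 0.08 each). Other accessory subunits that rose included NDUFA7 (1.37 in BR100 and 1.32 in BR200), NDUFA12 (1.17 and 1.08) and NDUFA5 (probe set 201304_at, 1.06 and 1.05).

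Changes in the core subunits were smaller. NDUFV1, which carries the flavin that accepts electrons from NADH, read 10.91 and 11.28 in BR100, 10.84 and 10.98 in BR200, and 10.70 and 10.78 in wild type. It rose in BR100 by 0.35 (SE 0.10, adjusted p = 0.0443), and the BR200 change of 0.17 did not pass (adjusted p = 0.226). NDUFV2, the neighbouring iron-sulfur subunit, had changes of 0.11 and 0.20 that did not pass. NDUFS1, the large iron-sulfur subunit, rose by 0.48 in BR100 and 0.30 in BR200 by its probe set of highest mean, 203039_s_at. Its probe set 235321_at was called lower in both, with changes of −0.46 and −0.38. Its probe sets 229647_at (−0.07 and −0.21) and 236356_at (−0.03 and −0.45) did not pass.

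Complex II, succinate dehydrogenase, links the tricarboxylic acid cycle to the chain. Of its 8 tested probe sets, 7 rose in BR100 and 6 in BR200, and 0 fell; 1 had an unadjusted p under 0.05 in the lower direction in BR100 and 0 in BR200. Of these probe sets 6 belong to SDHC, a membrane anchor that holds the heme, and share that gene. SDHC probe set 216591_s_at read 10.32 and 10.42 in BR100, 10.29 and 10.39 in BR200, and 8.29 and 8.35 in wild type. The resistant arrays lay about 2 log2 units above wild type, with changes of 2.05 in BR100 (SE 0.07, adjusted p = 0.000423) and 2.02 in BR200 (SE 0.07, adjusted p = 0.000549).

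The other SDHC probe sets that rose changed by 1.25 to 1.90 in BR100 and 1.09 to 1.77 in BR200. The exception was 238191_at, at 7.30 and 6.93 in BR100, 7.67 and 7.09 in BR200, and 7.58 and 7.38 in wild type. Its changes of −0.37 and −0.10 did not pass (adjusted p = 0.0558 and 0.504). SDHA, the flavoprotein that oxidises succinate, read 11.01 and 11.25 in BR100, 11.03 and 11.21 in BR200, and 10.10 and 10.21 in wild type. It rose by 0.98 in BR100 and 0.96 in BR200 (SE 0.08 each, adjusted p = 0.00148 and 0.00179), with no overlap between resistant and wild type arrays. SDHD, the second membrane anchor, read 12.88 and 12.75 in BR100, 12.65 and 12.55 in BR200, and 12.46 and 12.50 in wild type. Its rise in BR100 was 0.34 (SE 0.09, adjusted p = 0.0296), a call that was lost in 5 of the 6 fits that left out 1 array (adjusted p = 0.0713 to 0.162). The BR200 change of 0.12 did not pass (adjusted p = 0.288).

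Complex III, the cytochrome bc1 complex, had 10 of 12 probe sets higher and 1 lower in BR100 (median 0.59), and 8 higher and 1 lower in BR200 (median 0.55). UQCRC2, a core protein on its matrix side, read 12.03 and 12.41 in BR100, 12.10 and 12.44 in BR200, and 10.88 and 11.33 in wild type by probe set 200883_at. It rose by 1.11 in BR100 (SE 0.08, adjusted p = 0.00107) and by 1.16 in BR200 (SE 0.08, adjusted p = 0.00116), without overlap between resistant and wild type arrays. UQCRC1, its partner core protein, rose by 0.67 and 0.59. Among the small subunits, UQCRB (205849_s_at) rose by 0.89 and 0.79, UQCR10 (218190_s_at) by 0.81 in both variants and UQCRQ by 0.41 and 0.51. UQCRB passed in neither comparison without the kit block (adjusted p = 0.0656 in BR100 and 0.0941 in BR200), and UQCR10 in neither without the filter on low values (0.0504 and 0.0545).

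Complex IV had the median change nearest to 0 among the 5 complexes. Of its 24 probe sets, 9 (37.5%) rose and 2 (8.33%) fell in each resistant variant, and 13 did not pass in each. The medians were −0.03 in BR100 and 0.05 in BR200. Of all probe sets tested, 30.3% rose and 31.3% fell in BR100, and 28.4% and 29.2% in BR200. The nuclear subunits split by gene. COX6B1, COX4I1, COX5A, COX6C, COX7B and COX7C each had a probe set that rose, whereas no probe set of COX5B, COX6A1, COX7A2 or COX8A passed in either comparison. The probe sets that fell were that of COX7A2L and a second one of COX7B. The rise of COX5A came from 229426_at alone, and its BR200 call was lost in all 6 fits without 1 array (adjusted p = 0.0545 to 0.133) and its BR100 call without the kit block (0.325). The fall of COX7B 239252_at in BR200 was lost in 6 of 14 alternatives (adjusted p up to 0.117), among them the fits without either BR200 or either wild type array. The rise of COX7C 213846_at was lost in 4 alternatives in BR100 and 6 in BR200, with adjusted p up to 0.201 and 0.215, both without the kit block.

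COX6B1, a subunit on the intermembrane side where cytochrome c docks, read 13.60 and 13.70 in BR100, 13.35 and 13.31 in BR200, and 12.53 and 12.67 in wild type. It rose by 1.05 in BR100 (SE 0.08, adjusted p = 0.00148) and by 0.73 in BR200 (SE 0.08, adjusted p = 0.00397). The 3 variants did not overlap, with BR100 highest, and the difference of −0.32 between BR200 and BR100 did not pass (adjusted p = 0.111). COX4I1, the common isoform of a regulatory subunit, rose by 0.79 and 0.87 (200086_s_at). A further COX4I1 probe set of lower mean (5.37), 213758_at, had changes of −0.05 and 0.10. Its difference from 200086_s_at was called by limma in both comparisons (adjusted p = 0.0100 and 0.0174). COX6A1, the isoform of non-muscle tissue, read 13.97 and 13.67 in BR100, 13.99 and 13.56 in BR200, and 14.18 and 13.84 in wild type, changes of −0.19 and −0.23 that did not pass.

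COX7A2L, which takes part in joining complexes III and IV into supercomplexes, read 11.61 and 11.56 in BR100, 11.74 and 11.58 in BR200, and 12.12 and 12.14 in wild type. All 4 resistant arrays were below both wild type arrays. The changes were −0.55 in BR100 (SE 0.08, adjusted p = 0.00752) and −0.47 in BR200 (SE 0.08, adjusted p = 0.0126). The BR100 call was lost without either BR100 array (adjusted p = 0.0586 and 0.0556). The BR200 call was lost without either BR200 array (0.0511 and 0.0897) or the One-Cycle array of wild type (0.0624). Both calls were lost without the filter on low values (0.0537 and 0.0717).

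The 3 subunits encoded in mitochondrial DNA that had a probe set, COX1, COX2 and COX3, form the catalytic core of complex IV. Of their 4 probe sets 0 were called in either comparison by limma. At an unadjusted p under 0.05, 0 were higher and 1 lower in BR100, and 0 in either direction in BR200. COX1 read 14.64 and 16.03 in BR100, 15.42 and 16.20 in BR200, and 15.84 and 16.29 in wild type, with the lowest value on the BR100 Express array, and its changes of −0.73 and −0.26 did not pass (adjusted p = 0.0644 and 0.421). Both COX2 probe sets lay between 15.69 and 15.79 on all 6 arrays, and the files carry no saturation flags. Isoforms known from muscle, testis or lung, COX4I2, COX6A2, COX6B2, COX7A1, COX7B2 and COX8C, stayed under 4 on every array and were not tested.

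**Figure D3:**
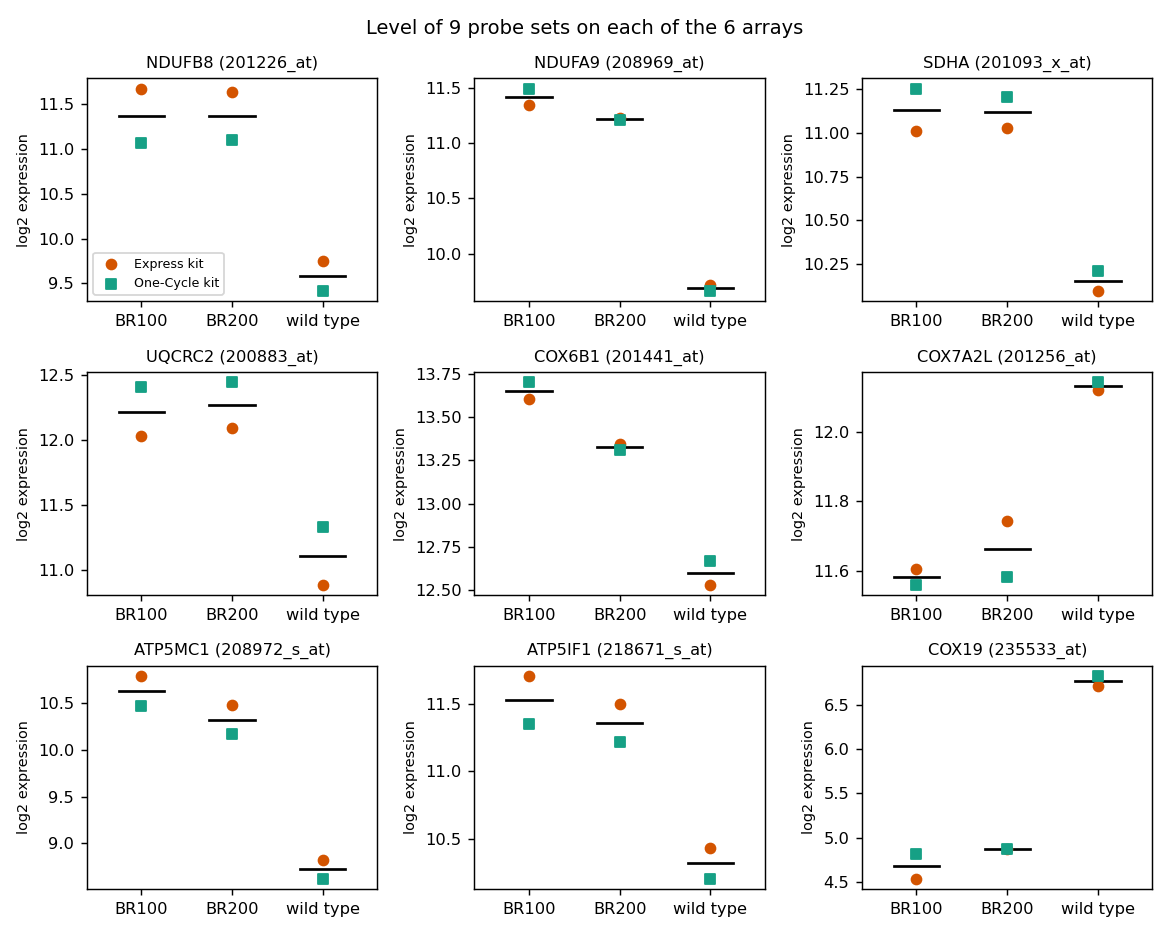
Log2 value of 9 probe sets on each array, with BR100, BR200 and wild type from left to right and a marker for each labelling kit. In 7 panels the resistant arrays lie above wild type, and in the panels of COX7A2L and COX19 they lie below it.

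Complex V, the ATP synthase, had 21 of 33 probe sets higher and 2 lower in BR100 (median 0.47) and 19 higher and 2 lower in BR200 (median 0.42). The soluble head with its central stalk, made of ATP5F1A to ATP5F1E, had 3 of 10 probe sets higher (30%) and 0 lower in each variant. Of all probe sets tested, 30.3% were higher in BR100 and 28.4% in BR200. In the lower direction, 0 of the 10 had an unadjusted p under 0.05. The membrane part, peripheral stalk and inhibitor had 18 of 23 higher and 2 lower in BR100, and 16 higher and 2 lower in BR200. The difference between these groups was not tested.

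The ring that protons turn is built from subunit c, which 3 genes encode as the same mature protein. ATP5MC1 read 10.79 and 10.48 in BR100, 10.48 and 10.17 in BR200, and 8.82 and 8.62 in wild type. It rose by 1.91 in BR100 (SE 0.08, adjusted p = 0.000501) and by 1.60 in BR200 (SE 0.08, adjusted p = 0.00075), with no overlap between resistant and wild type arrays. ATP5MC2 (208764_s_at) rose by 0.61 and 0.83, and ATP5MC3 (207508_at) by 0.90 and 0.82. A further ATP5MC3 probe set, 228168_at, had changes of −0.21 and −0.62 that did not pass, and its difference from 207508_at was called in both comparisons (adjusted p = 0.0110 and 0.00961). ATP5PD and ATP5PF, subunits of the peripheral stalk, rose by 0.95 and 0.96 in BR100 and by 0.97 and 0.75 in BR200. ATP5PF lost its BR200 call without the Express array of BR200 (adjusted p = 0.0583), and both calls without the filter (0.0552 in BR100 and 0.0851 in BR200).

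Of the head subunits, ATP5F1A, the alpha subunit, rose by 0.58 and 0.61. ATP5F1B, the catalytic beta subunit, read 12.61 and 12.73 in BR100, 12.53 and 12.65 in BR200, and 12.41 and 12.48 in wild type. Its changes of 0.23 and 0.14 did not pass (adjusted p = 0.0563 and 0.165). ATP5IF1, the inhibitor that blocks ATP hydrolysis by the synthase, read 11.71 and 11.36 in BR100, 11.50 and 11.22 in BR200, and 10.43 and 10.20 in wild type by probe set 218671_s_at. It rose by 1.21 in BR100 (SE 0.08, adjusted p = 0.000962) and by 1.05 in BR200 (SE 0.08, adjusted p = 0.00148), and its other probe sets rose as well, by 1.06 and 1.41 in BR100 and by 0.84 and 0.92 in BR200.

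Assembly factors moved in both directions. Of 33 probe sets, 15 (45.5%) rose and 5 (15.2%) fell in BR100 (median 0.35), beside 30.3% and 31.3% of all probe sets tested. In BR200, 15 (45.5%) rose and 7 (21.2%) fell (median 0.36), beside 28.4% and 29.2% of all. COX15, which makes heme A for complex IV, read 8.47 and 9.18 in BR100, 8.52 and 9.11 in BR200, and 7.19 and 7.46 in wild type by probe set 221550_at. It rose by 1.50 in BR100 (SE 0.13, adjusted p = 0.00185) and 1.48 in BR200 (SE 0.13, adjusted p = 0.00219), and 2 further probe sets of COX15 rose by 0.81 and 1.11 in BR100. Without the filter the BR200 call of 221550_at was lost (adjusted p = 0.0515). COX11, which delivers copper to COX1, rose by 1.14 and 1.10 (211727_s_at), and its probe set 214277_at had changes of 1.73 and 0.98. Its probe sets 203551_s_at (0.43 and 0.23) and 239760_at (0.08 and 0.12) changed less. The differences of these last probe sets from 211727_s_at were called by limma in BR100 (adjusted p = 0.0221 and 0.00538) and BR200 (0.0180 and 0.00976). SDHAF3, which helps to mature the iron-sulfur subunit of complex II, rose by 1.31 and 1.14, and passed in neither comparison without the filter (adjusted p = 0.0642 and 0.0843).

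COX19, a copper-related factor of the intermembrane space, had the largest fall among the members. Probe set 235533_at read 4.53 and 4.82 in BR100, 4.88 and 4.87 in BR200, and 6.72 and 6.83 in wild type. It fell by 2.10 in BR100 (SE 0.10, adjusted p = 0.000614) and by 1.90 in BR200 (SE 0.10, adjusted p = 0.000856), at levels close to the filter in the resistant variants. The second COX19 probe set, 231831_at, fell by 0.84 and 0.65. NDUFAF3, an assembly factor of complex I, fell by 0.37 in BR100 and 0.53 in BR200. Its BR100 call was lost in all 6 fits without 1 array (adjusted p = 0.0508 to 0.191), and its BR200 call in the 4 fits that left out a BR200 or wild type array (0.0537 to 0.106). NDUFAF2 fell in BR200 by 0.70 (SE 0.07, adjusted p = 0.00306; 0.351 without the kit block), and its BR100 change of −0.23 did not pass (adjusted p = 0.0517).

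Few of these genes were called between the resistant variants. In BR200 against BR100, 1 probe set was higher, 2 were lower and 159 of the 162 did not pass, with a median of −0.04, while 6.01% of all probe sets tested were called, 4.37% higher and 1.64% lower. At an unadjusted p under 0.05, 4 members were higher and 18 lower, beside 3254 higher and 2875 lower of all 22317 probe sets tested. The lower calls of members numbered 7 with a mean of at least 6 and 11 with a variance trend. Shares over all probe sets were not computed for those 2 fits. SDHAF1, an assembly factor for the iron-sulfur clusters of complex II, read 8.84 and 8.51 in BR200 and 9.51 and 9.26 in BR100, beside 9.41 and 9.19 in wild type (44669_at). It was lower in BR200 than in BR100 by 0.71 (SE 0.08, adjusted p = 0.0308). The second SDHAF1 probe set, 221855_at, had a difference of −0.57 that did not pass (adjusted p = 0.0659). The other calls were UQCRC2 241755_at, at 3.73 and 3.83 in BR200 and 4.62 and 4.61 in BR100, and NDUFB4 228940_at, at 4.65 and 4.20 in BR200 and 3.24 and 2.98 in BR100. UQCRC2 241755_at was near background (under 4 on both arrays) in BR200, and NDUFB4 228940_at was so in BR100, so both passed the filter only through the other groups. With the dim values raised to 4, these differences were at least 1.53-fold lower in BR200 for UQCRC2 241755_at and at least 1.35-fold higher in BR200 for NDUFB4 228940_at. Each of the 3 calls was lost in every fit that left out 1 array (adjusted p = 0.0923 to 0.214).

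Probe sets of the same gene did not always change alike. Each other tested probe set of a gene was subtracted, array by array, from the probe set with the highest mean, and the difference was tested over all 8674 such pairs of all genes. Among the members' 66 pairs from 41 genes, 24 (36.4%) differed in their response in BR100, against 34% of all pairs, and 21 (31.8%) in BR200, against 25.9% of all pairs. In BR200 against BR100, 0 of the 66 were called by limma and 6 had an unadjusted p under 0.05, with 0.0346% of all pairs called. Of the called pairs, 13 of 24 in BR100 and 11 of 21 in BR200 had a second probe set with a mean under 7, as did 21 of the 66. A probe set near background in a compared group entered 3 of the called pairs in BR100 (NDUFA5, NDUFB4 and NDUFC1) and 2 in BR200 (NDUFC1 and UQCRC2). Without the kit block 4 and 1 pairs were called. Shares over all pairs were not computed for that fit, nor for those without 1 array. Without the Express or the One-Cycle array of BR100, 12 and 10 were called in BR100, and without either BR200 array 0 were called in BR200. Leaving out the Express or the One-Cycle array of wild type left 13 and 11 called in BR200.

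In 8 pairs (12.1%) the probe sets were called in opposite directions in BR100, and in 5 (7.58%) in BR200, beside 5.15% and 3.1% of all pairs. The genes with opposite calls in BR100 were ATP5MG, ATP5PB, COX20, COX7B, NDUFB1, NDUFB4, NDUFS1 and UQCRC2. NDUFB4 228940_at was near background in BR100. With those values raised to 4, it was at least 1.07-fold lower in BR100 than in wild type. In fits without 1 array the lower call was lost at times for NDUFB1 243630_at (adjusted p = 0.0582 to 0.149) and NDUFS1 235321_at (0.0547 to 0.0842). UQCRC2 212600_s_at read 13.09 and 13.15 in BR100, 13.09 and 13.15 in BR200, and 12.27 and 12.20 in wild type. Its probe set 241755_at read 4.62 and 4.61 in BR100, 3.73 and 3.83 in BR200, and 5.31 and 5.21 in wild type. One was higher and the other lower in every resistant array, and the change of the difference was 1.53 in BR100 (SE 0.12, adjusted p = 0.00349). In BR200 the second probe set was near background, and with its values raised to 4 it was at least 2.39-fold lower than in wild type.

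COX20, a chaperone of newly made COX2, was a pair with both probe sets well above the filter. Probe set 224820_at read 10.08 and 9.78 in BR100, 10.25 and 10.05 in BR200, and 10.82 and 10.47 in wild type. Probe set 224824_at read 10.63 and 9.72 in BR100, 10.48 and 9.64 in BR200, and 9.56 and 8.82 in wild type. The first fell by 0.72 in BR100 and 0.50 in BR200 and the second rose by 0.99 and 0.87, which did not pass without the kit block (adjusted p = 0.202 and 0.268). Another probe set of COX20, 206848_at, fell by 1.14 in BR100 (adjusted p = 0.0114), a call lost in 4 of 15 alternatives (up to 0.149), among them the fits without either wild type array, and its BR200 change of −0.34 did not pass. The change of the difference between the first and the second was −1.71 in BR100 (SE 0.13, adjusted p = 0.00349) and −1.37 in BR200 (SE 0.13, adjusted p = 0.0076).

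ATP5MG, subunit g of the membrane part, also had both probe sets at high values. Probe set 208745_at read 10.97 and 10.81 in BR100, 11.04 and 10.64 in BR200, and 11.38 and 11.35 in wild type, falling by 0.47 and 0.52. The 3 other probe sets of ATP5MG all end in _x_at, a suffix for probes that may bind other transcripts, with changes of 0.33 to 0.47 in BR100 and 0.15 to 0.33 in BR200, where 1 of the 3 passed. The fall was lost in BR100 without either BR100 array or the One-Cycle array of wild type (adjusted p = 0.117 to 0.145). In BR200 it was lost without either BR100 array, the One-Cycle array of BR200 or that of wild type (adjusted p = 0.0594 to 0.11). NDUFC1 showed the reverse arrangement. Its probe set of highest mean, 203478_at, did not pass (0.04 and 0.12), and 232146_at read 4.36 and 4.42 in BR100, 4.44 and 4.38 in BR200, and 3.17 and 3.34 in wild type. It passed the filter only through the resistant arrays, and with wild type raised to 4 it was at least 1.31-fold higher in BR100 and at least 1.33-fold higher in BR200.

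**Figure D4:**
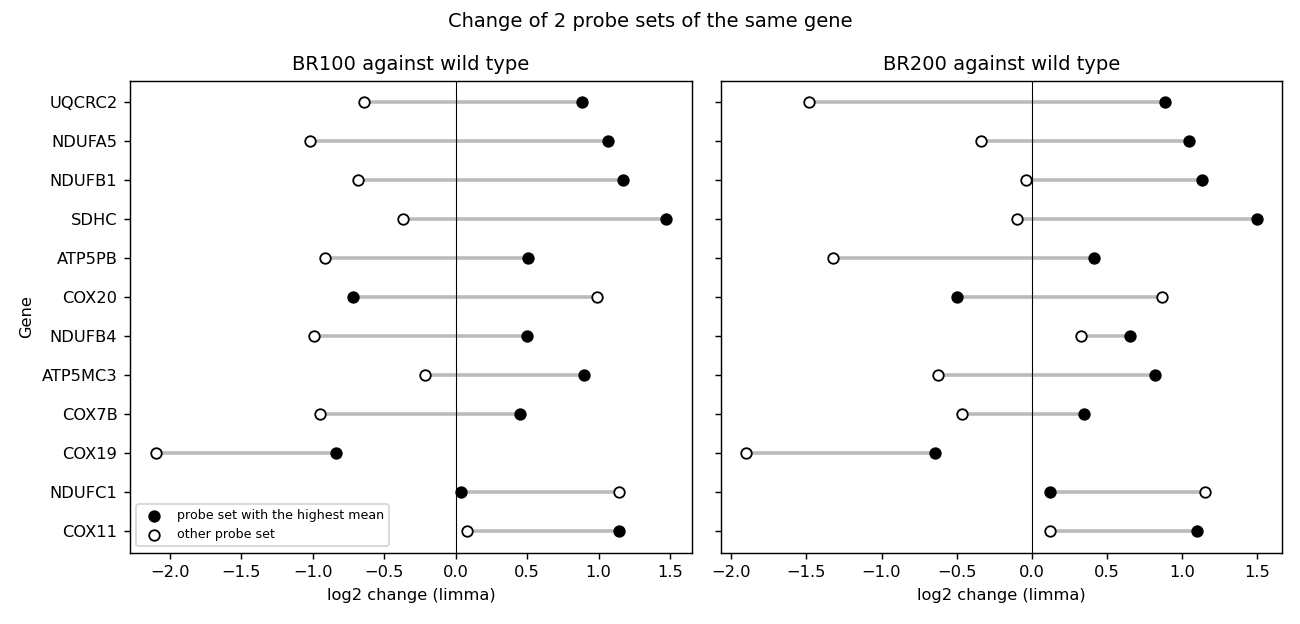
Log2 change against wild type of a pair of probe sets from each of 12 genes, for BR100 and BR200, where the difference between the pair was called in at least 1 of these comparisons. The filled marker is the probe set with the highest mean and the open marker the other, and for COX20 they lie at −0.72 and 0.99 in BR100 and at −0.50 and 0.87 in BR200. The open markers of NDUFA5 and NDUFB4 in BR100, UQCRC2 in BR200 and NDUFC1 in both rest on a group near background, so their places are not exact.

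Genes that work with the chain were taken as lists, each gene by its probe set of highest mean. Over all 10370 genes tested in this way, 34.8% were called higher and 29.8% lower in BR100, and 33.1% and 29.1% in BR200. Among electron carriers and coenzyme Q synthesis, 14 of 19 genes rose and 1 fell in BR100, and 13 rose and 1 fell in BR200 (medians 1.04 and 0.97). COQ3, a methyltransferase of coenzyme Q synthesis, rose by 2.33 and 2.27, whereas CYCS, cytochrome c, was at 0.01 and −0.16 and did not pass. Assembly factors outside the symbol rule had 20 of 31 higher and 1 lower in BR100 and 20 higher and 3 lower in BR200, with NUBPL, an iron-sulfur factor for complex I, at 2.06 and 1.92. Enzymes of the tricarboxylic acid cycle and pyruvate dehydrogenase had 14 of 17 higher in BR100 and 10 in BR200. Of these, 0 were lower in either, and 0 and 1 had an unadjusted p under 0.05 in the lower direction. IDH2, the mitochondrial NADP-linked isocitrate dehydrogenase, rose by 1.78 and 1.97.

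Import and inner membrane genes had 20 of 32 higher and 4 lower in BR100 and 18 higher and 4 lower in BR200. TIMM8A rose by 2.20 and 2.15 and TIMM44, which tethers the import motor, fell by 1.39 and 1.52. Transcription and biogenesis genes had 7 of 18 higher and 4 lower in BR100 and 6 higher and 6 lower in BR200, shares near those of all genes. TFAM, which packages mitochondrial DNA and helps to start its transcription, rose by 1.25 and 1.02. NRF1, a transcription factor of nuclear respiratory genes, read 7.62 and 7.50 in BR100, 7.41 and 7.09 in BR200, and 8.46 and 8.24 in wild type. It fell by 0.79 in BR100 (SE 0.09, adjusted p = 0.00306) and by 1.10 in BR200 (SE 0.09, adjusted p = 0.00168).

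The promoters of the members were searched for the letters bound by NRF1 and by ETS factors such as GABP, regulators known for nuclear respiratory genes. RefSeq promoters (GRCh38.p14, 250 bases before to 50 after the start) were matched for 85 of 101 member genes looked up. The NRF1 motif CGCATGCG stood in 15.3% of them, against 2.88% of the 15842 promoters of protein-coding genes and 2.19% of all promoters in the table. The ETS motif CCGGAAG, on either strand, stood in 28.2%, against 14.2% of those of protein-coding genes and 10.7% of all. The motifs do not overlap each other in the stretches printed here. Among genes whose highest probe set rose in BR100, 16.1% of 56 promoters held the NRF1 motif and 28.6% the ETS motif, and among those whose highest probe set was tested and did not rise 12.5% of 24 and 29.2% did. The remaining promoters belong to genes whose highest probe set was not tested. A match is a description of letters in this window, not a bound site. Not printed are NDUFA9, NDUFB6, SDHA, UQCRC2, UQCR10, COX4I1, COX5A and ATP5IF1, which rose in BR100. These genes held neither motif in the 250 bases before the start, so the choice printed leans towards matches. The printed stretches are from genes already described, with motif matches in capitals: SDHD and ATP5PF hold NRF1 motifs, SDHD, COX6B1, COX15 and SDHAF3 hold ETS motifs, and NDUFB8 and ATP5MC1, which rose strongly, hold neither. Each is 100 bases on the strand of its gene, at chr11:112086718-112086817 (+) for SDHD, chr21:25735120-25735219 (-) for ATP5PF, chr19:35648223-35648322 (+) for COX6B1, chr10:99732128-99732227 (-) for COX15, chr7:97117588-97117687 (+) for SDHAF3, chr10:100529924-100530023 (-) for NDUFB8 and chr17:48892687-48892786 (+) for ATP5MC1.
SDHD: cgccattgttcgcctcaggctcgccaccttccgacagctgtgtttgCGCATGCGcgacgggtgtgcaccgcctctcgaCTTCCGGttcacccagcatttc
ATP5PF: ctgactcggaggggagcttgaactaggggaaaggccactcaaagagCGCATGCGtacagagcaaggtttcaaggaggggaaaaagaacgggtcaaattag
COX6B1: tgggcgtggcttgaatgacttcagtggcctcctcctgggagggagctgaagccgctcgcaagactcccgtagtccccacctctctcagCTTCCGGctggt
COX15: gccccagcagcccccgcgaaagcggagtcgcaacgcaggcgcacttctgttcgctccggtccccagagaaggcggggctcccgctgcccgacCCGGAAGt
SDHAF3: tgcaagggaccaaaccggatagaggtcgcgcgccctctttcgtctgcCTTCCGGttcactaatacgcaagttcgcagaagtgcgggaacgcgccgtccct
NDUFB8: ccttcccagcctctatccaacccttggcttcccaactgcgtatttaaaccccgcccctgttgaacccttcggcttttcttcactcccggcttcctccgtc
ATP5MC1: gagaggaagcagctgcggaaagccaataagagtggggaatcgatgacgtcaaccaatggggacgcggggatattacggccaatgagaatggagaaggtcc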

How the data were processed

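Log2 values, 1 for each probe set, were deposited by the authors. They came from GCRMA (background correction, normalization and summary of probes), per the submitters' processing notes; its version is not given in the sources used here. The lowest value in the table was 2.23. Symbols came from the array's annotation table, and all 203 member probe sets matched RefSeq with 0 symbols differing. limma 3.58.1 in R 4.3.3 (lmFit, eBayes) was fitted over 22317 probe sets with a log2 value of at least 4 on at least 2 of the 6 arrays, with a term for variant and the labelling kit as a block, 2 residual and 2.03 prior degrees of freedom, two-sided tests and Benjamini-Hochberg adjustment. In this fit 47 probe sets, 0 of them members, had a residual spread of zero, which limma offsets. The labels name the kit each replicate number stands for, and arrays of a kit deviated together (correlations of 0.817 to 0.882). The number of arrays and the signal over background limit the precision.

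The members, lists and tests were chosen with earlier results of these data known. The rule for named genes took, per complex and comparison against wild type, up to 3 genes with the largest called rise and 3 with the largest fall, up to 12 with the largest called differences between probe sets or between BR200 and BR100, and subunits c, the inhibitor, complex II and complex IV isoforms whatever their values; other genes were chosen after their values were seen. The model was tested on simulated data. Alternatives covered the kit block, the filter, gene-level values, probe set suffixes, scaling, the variance trend and leaving out each array.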

Additional observations from a re-analysis of the deposited data

Results flagged for a closer look

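In 3 probe sets the change against wild type differed between BR200 and BR100 by the test of BR200 against BR100 itself (limma). The difference was 1.32 for NDUFB4 228940_at (adjusted p = 0.0168), with changes against wild type of 0.33 in BR200 and −0.99 in BR100, where it was near background (under 4 on both arrays). With those values raised to 4, it was at least 1.35-fold higher in BR200. For UQCRC2 241755_at it was −0.84 (adjusted p = 0.0297), with changes of −1.48 in BR200 and −0.64 in BR100. It was near background in BR200, and with those values raised to 4 it was at least 1.53-fold lower in BR200. For SDHAF1 44669_at it was −0.71 (adjusted p = 0.0308), with changes of −0.62 in BR200 and 0.09 in BR100. The higher-mean probe sets of NDUFB4 and UQCRC2 did not pass this test (0.15 and 0.00). Each call was lost in 8 alternatives, among them the fits without the kit block and without the filter on low values.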

How the results depend on the processing

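Under the alternatives run, 0 of the called changes in named probe sets changed sign. Of 750 alternative values of 52 changes that did not pass, 32 changed sign and 20 passed with their sign kept. Those that passed included SDHC 238191_at in BR100 (mean of at least 6), NDUFAF2 in BR100 and COX6B1 in BR200 against BR100 (both with a variance trend). Without the kit block (no pairing of arrays by kit), 45 member probe sets were higher and 7 lower in BR100, 41 higher and 4 lower in BR200, 0 and 0 in BR200 against BR100, and 4 and 1 probe set pairs were called against wild type. With no filter on low values, 60 were higher and 6 lower in BR100 (median 0.30), 51 and 4 in BR200 (median 0.22), and 0 and 0 in BR200 against BR100 (median −0.012). That fit holds 18671 probe sets of zero residual spread among 54613, and its prior degrees of freedom were 0.316, against 2.03. With a mean of at least 6, 8 were lower in BR100 (median 0.50), 7 were lower in BR200 against BR100, and 13 and 12 of 47 pairs were called. With the highest probe set of each gene, 7 were lower in BR100 (median 0.50), 7 in BR200 (median 0.44), and 0 higher in BR200 against BR100. With the mean of a gene's probe sets, 62 genes were higher and 8 lower in BR100 (median 0.41), and 55 and 7 in BR200. Without probe sets ending in _x_at, _s_at or _a_at, 43 of 85 were higher in BR100 (median 0.34) and 40 in BR200 (median 0.24), with 12 and 11 of 16 pairs called. Centring arrays gave a median of 0.48 in BR100, and a variance trend 11 lower in BR200 against BR100. Gene-level and filtered fits hold fewer features, and the cause was not tested for the others. Shares over all features were not computed for any of the alternatives.

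Leaving out 1 array gave 64 to 86 higher, 9 to 12 lower and medians of 0.41 to 0.49 in BR100, and 48 to 71 higher, 7 to 12 lower and medians of 0.33 to 0.40 in BR200. In BR200 against BR100 it gave 0 calls and medians of −0.05 to −0.02. Pairs called were 10 to 20 in BR100 and 0 to 14 in BR200, with 0 without either BR200 array. Leaving out probe sets of zero residual spread, chosen after seeing the data, gave 97 and 14 in BR100, 90 and 13 in BR200, and 1 and 3 in BR200 against BR100. Of 1068 alternative values of 74 called changes in named probe sets, 921 kept their call and 147 lost it. Signal near background limits the probe sets under 4.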

Other observations

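Of the 21 probe sets that name a member together with another gene, 19 passed the filter. In BR100 against wild type 10 of these were higher and 3 lower (median 0.43), and in BR200 against wild type 9 were higher and 1 lower (median 0.19). Over all probe sets tested, 30.3% were higher and 31.3% lower in BR100, and 28.4% and 29.2% in BR200, with medians of −0.00 and −0.00.

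The labelling kit moved the members as well. With the variants as the block, 59 of the 162 tested member probe sets were higher and 6 lower on Express than on One-Cycle arrays. Of all 22317 probe sets tested, 4146 were higher and 3479 lower on Express. The median difference was 0.21 for the members and 0.04 over all probe sets tested.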
